A study of Mus musculus with 47 samples.

Results

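The immediate early genes described here are 10 transcription factor genes that cells switch on within minutes of a stimulus, without first making new protein: Egr1, Egr2, Fos, Fosb, Jun, Junb, Atf3, Nr4a1, Nr4a2 and Nr4a3. They were taken by symbol from a list, and all 10 were found among the 57180 genes of the table. The list was chosen with earlier results of these data known, so shares of members called are descriptions of a chosen set. Of the 10, 8 passed the filter on low values, which 15321 genes passed in all, and Egr2 and Nr4a3 did not. Polyadenylated RNA had been sequenced from retinas of C57BL/6 mice, a common inbred strain, with no transgene or treatment named in the labels, at an age of 6 weeks (young) or 20 months (aged). The mice lived in 12 h of light and 12 h of darkness, and retinas of the right eye were collected every 4 h at zeitgeber times ZT2, ZT6 and ZT10 (light) and ZT14, ZT18 and ZT22 (dark), counted in hours from lights on and dissected under dim red light. There were 4 libraries in each of 11 groups and 3 in aged ZT18, 47 in all (24 young, 23 aged), and the labels name 4 mice per age and time.

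The reads behind each library, recovered from the values, numbered 32.0 to 55.5 M (median 37.0 M). Of all libraries, young ZT10 replicate 4, which also had the highest total, and aged ZT6 replicate 3 stood apart from their groups, with mean absolute log2 deviations of 0.666 and 0.468 over the tested genes against at most 0.267 elsewhere. They are used unless stated otherwise. The summed level of 6 rod markers was 12499 to 21172 RPKM (reads per kilobase of exon, scaled to library size) in every library, so the tissue held the defining transcripts of photoreceptors. Markers of the inner retina were less even. In young light libraries their lowest sums were 7.88 RPKM for amacrine cells (median 88.7), 62.9 for ganglion cells (median 407.3) and 89.9 for Muller glia (median 688.2). In young dark, aged light and aged dark libraries the lowest sums were 60.6, 35.2 and 39.9 RPKM for amacrine cells. For ganglion cells they were 280.8, 190.9 and 206.6 RPKM, and for Muller glia 562.1, 401.5 and 546.4 RPKM. The part of inner retina content in the members' values was not tested. The labels do not say whether a library came from 1 mouse, and p-values measure the spread between these libraries. In whole tissue, fewer cells of a type and less RNA per cell cannot be told apart.

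As background, membrane depolarization, calcium entry and growth factor signals act through kinases on factors already bound to these promoters, such as CREB at cyclic AMP response elements (CRE) and the serum response factor at CArG boxes. EGR proteins are zinc finger factors, FOS and JUN proteins pair into the AP-1 factor, ATF3 is a stress-inducible relative that can pair with JUN proteins, and NR4A proteins are orphan nuclear receptors that act without a known natural ligand. In the retina Egr1 and Fos are widely used as marks of neurons that have just responded to light or to a change of light.

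The promoters below are shown because Fos, Nr4a1 and Junb rose together in the dark, whereas Jun and Atf3 did not pass that test. Each is the 250 bases before the start of transcription, 5′ to 3′ on the gene's strand, from RefSeq on GRCm38.p6, an earlier build than the GRCm39 of the deposited values. Of the 10 members 9 matched that promoter table, and Egr1 did not. Capitals mark matches, on either strand, to 8 motifs: CRE TGACGTCA, its core TGACG, the AP-1 site TGANTCA, the EGR site GCGNGGGCG, the NR4A site AAAGGTCA, the E-box CACGTG, the TATA box TATAAA and the CArG box. A core inside a full CRE would count for both.
Fos, chr12:85473640-85473889, + strand: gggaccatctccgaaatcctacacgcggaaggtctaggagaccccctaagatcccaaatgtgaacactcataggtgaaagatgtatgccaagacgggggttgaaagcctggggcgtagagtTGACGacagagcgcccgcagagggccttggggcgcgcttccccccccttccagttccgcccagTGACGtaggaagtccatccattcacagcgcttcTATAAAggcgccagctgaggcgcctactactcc
Nr4a1, chr15:101266596-101266845, + strand: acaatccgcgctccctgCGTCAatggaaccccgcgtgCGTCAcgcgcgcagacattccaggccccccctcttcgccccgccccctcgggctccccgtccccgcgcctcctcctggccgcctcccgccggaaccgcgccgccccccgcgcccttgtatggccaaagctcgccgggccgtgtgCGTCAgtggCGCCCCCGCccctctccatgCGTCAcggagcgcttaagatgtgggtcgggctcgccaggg
Junb, chr8:84978749-84978998, - strand: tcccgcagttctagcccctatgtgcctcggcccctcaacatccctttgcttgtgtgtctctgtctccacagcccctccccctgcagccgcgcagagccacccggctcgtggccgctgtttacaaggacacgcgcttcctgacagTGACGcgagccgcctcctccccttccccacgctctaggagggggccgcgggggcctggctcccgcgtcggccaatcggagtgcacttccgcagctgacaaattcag
Atf3, chr1:191183334-191183583, - strand: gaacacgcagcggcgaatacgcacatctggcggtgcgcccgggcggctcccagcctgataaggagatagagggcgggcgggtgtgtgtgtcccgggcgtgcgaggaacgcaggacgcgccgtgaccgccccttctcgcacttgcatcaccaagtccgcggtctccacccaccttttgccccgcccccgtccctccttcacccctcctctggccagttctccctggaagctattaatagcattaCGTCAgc
Jun, chr4:95052223-95052472, - strand: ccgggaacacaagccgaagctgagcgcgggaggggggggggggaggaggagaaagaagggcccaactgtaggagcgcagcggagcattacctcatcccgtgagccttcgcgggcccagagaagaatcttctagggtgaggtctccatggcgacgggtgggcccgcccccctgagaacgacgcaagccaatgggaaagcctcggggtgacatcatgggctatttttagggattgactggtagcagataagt

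The CRE core was found in 4 of these 5 windows. Fos held it 129 and 66 bases before the start, with a TATA box at 33. Nr4a1 held 4 cores on the opposite strand, the nearest at 40, with an EGR site at 60. Junb held 1 at 106 and Atf3 1 at 7. None of the 8 motifs was found by exact letters in the Jun window, which holds tgacatca, 1 base from the full CRE. The core is short and frequent, present in 17.8% of 32851 promoter windows, against 12.4% for the TATA box, 4.7% for the EGR site and 1.55% for the full CRE, which none of these 5 windows held. Of the members not shown, Nr4a2 held 6 matches, Nr4a3 4 and Fosb 2, each with the core among them. None of these was called higher in the dark, so matches were not confined to the members that rose. Some Egr2 windows held the core too. Such matches describe letters and say nothing of binding.

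Averaged over all 47 libraries, Egr1 (18.6 ± 20.3 RPKM, SD), Nr4a1 (15.1 ± 11.1 RPKM), Fos (13.2 ± 8.93 RPKM), Jun (11 ± 1.40 RPKM), Junb (9.37 ± 3.08 RPKM) and Atf3 (5.20 ± 1.34 RPKM) were the abundant members. Nr4a2 (0.961 ± 0.255 RPKM) and Fosb (0.712 ± 0.156 RPKM) were near the filter, and Nr4a3 (0.272 ± 0.155 RPKM) and Egr2 (0.0143 ± 0.0235 RPKM) below it. RPKM is scaled to exon length, so these levels can be set beside each other, and those of the first 5 overlapped from library to library. Their spreads differed in kind: the SD of Egr1 exceeded its mean, whereas that of Jun was small beside its mean.

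**Figure D1:**
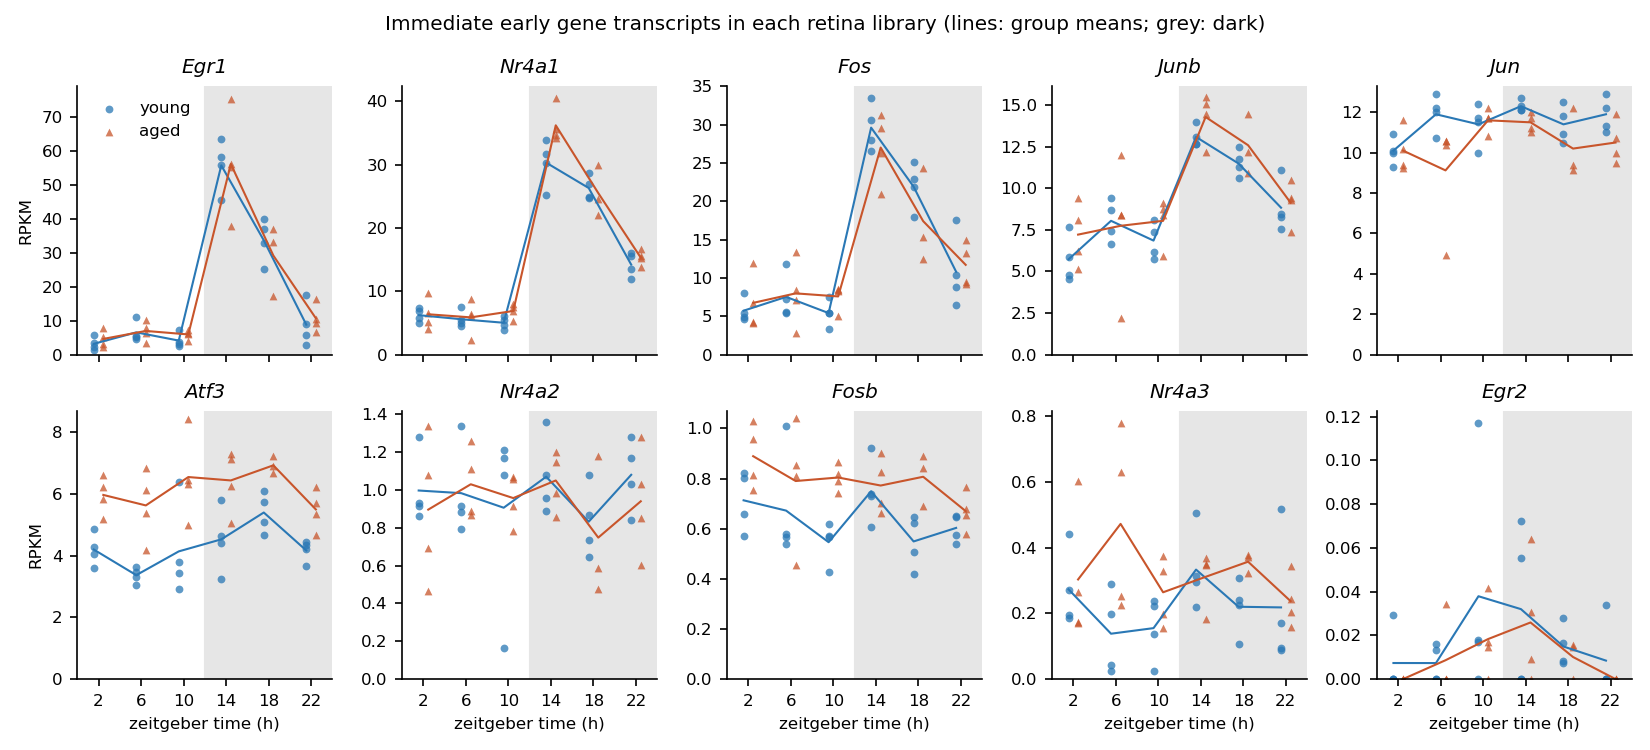
RPKM of each member (vertical axis, own scale from 0 in each panel) against zeitgeber time in h, with 1 point per library (circles young, triangles aged), lines through group means and the dark hours shaded. Egr1, Nr4a1, Fos and Junb stood highest at ZT14 in both ages, and Atf3 was higher in aged at all 6 times.

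In both ages transcripts of Egr1, Fos, Junb and Nr4a1 were low by day, stood highest 2 h after lights off, and then declined through the night. The largest difference between dark and light was that of Egr1, 5.38-fold in young and 4.32-fold in aged, followed by Nr4a1 (3.81-fold and 3.76-fold), Fos (2.99-fold and 2.42-fold) and Junb (1.59-fold in each). These folds are on the log2(RPKM + 0.5) scale, which understates changes of low genes.

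Egr1 encodes a zinc finger factor whose targets include its own repressors. In young retinas its level in the single libraries was 2.25, 1.23, 3.35 and 5.82 RPKM at ZT2, 4.59, 5.10, 5.33 and 11.1 at ZT6 and 3.66, 2.55, 7.28 and 2.98 at ZT10. It was 45.6, 55.8, 58.2 and 63.5 RPKM at ZT14, 37.0, 40.0, 25.2 and 32.8 at ZT18 and 17.6, 5.84, 9.12 and 2.73 at ZT22. All ZT14 and ZT18 libraries lay above every light library, while 3 of the 4 at ZT22 had returned to the daytime range. The share of all tested genes that separate in this way was not counted, here or for the members below. In aged retinas the light libraries held 7.86, 5.14, 3.16 and 2.28 RPKM at ZT2, 6.42, 10.2, 3.41 and 7.87 at ZT6 and 6.03, 7.14, 4.10 and 6.43 at ZT10, and the dark libraries 75.5, 55.2, 37.9 and 56.2 at ZT14, 37.1, 33.2 and 17.4 at ZT18 and 16.4, 10.4, 6.69 and 9.38 at ZT22. Again ZT14 and ZT18 did not overlap the light libraries, and ZT22 did. The dark minus light difference of log2 values was 2.43 ± 0.23 (SE) in young and 2.11 ± 0.24 in aged, with adjusted p of 7.77e-10 and 2.38e-08 by limma.

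Fos encodes the AP-1 subunit most often used as an activity marker. Its young libraries held 4.87, 4.59, 5.44 and 7.97 RPKM at ZT2, 5.6, 5.40, 7.26 and 11.8 at ZT6, 5.38, 5.45, 7.53 and 3.29 at ZT10, 26.5, 28.0, 33.5 and 30.6 at ZT14, 22.9, 21.8, 17.9 and 25.1 at ZT18 and 17.6, 8.83, 10.4 and 6.51 at ZT22. As for Egr1, ZT14 and ZT18 cleared all light libraries and ZT22 overlapped them. The aged libraries held 11.9, 6.76, 4.22 and 4.09 RPKM at ZT2, 8.45, 13.4, 2.86 and 7.15 at ZT6, 8.57, 8.32, 4.99 and 8.45 at ZT10, 31.3, 26.3, 20.9 and 29.6 at ZT14, 24.4, 15.3 and 12.4 at ZT18 and 14.9, 9.17, 9.40 and 13.3 at ZT22. In aged only ZT14 cleared the light libraries in full, because 1 aged library at ZT6 reached 13.4 RPKM and 1 at ZT18 was at 12.4 RPKM. The log2 difference was 1.58 ± 0.19 (SE) in young and 1.27 ± 0.19 in aged, with adjusted p of 6.86e-08 and 5.48e-06.

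Junb encodes an AP-1 subunit that pairs with FOS proteins and can restrain JUN. It started from a higher daytime level and rose less. In young it was 4.80, 4.56, 5.89 and 7.65 RPKM at ZT2, 6.64, 7.46, 8.69 and 9.40 at ZT6, 5.78, 6.15, 7.38 and 8.11 at ZT10, 12.7, 14, 13.1 and 12.7 at ZT14, 12.5, 11.8, 10.6 and 11.3 at ZT18 and 11.1, 8.28, 8.45 and 7.57 at ZT22. In aged it was 9.41, 8.11, 6.25 and 5.12 RPKM at ZT2, 8.43, 12.0, 2.17 and 8.39 at ZT6, 8.74, 9.13, 5.95 and 8.39 at ZT10, 15.5, 15.1, 12.2 and 14.5 at ZT14, 14.5, 12.2 and 10.9 at ZT18 and 9.40, 9.30, 7.39 and 10.5 at ZT22. All ZT14 libraries lay above all light libraries of their age, and those of ZT22 overlapped them. The log2 difference was 0.67 ± 0.14 (SE) in young and 0.67 ± 0.15 in aged, with adjusted p of 0.000841 and 0.00111.

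Nr4a1 encodes the orphan receptor NUR77. Its young light libraries held 7.31, 4.94, 5.81 and 6.82 RPKM at ZT2, 5.39, 4.95, 4.46 and 7.52 at ZT6 and 5.5, 4.61, 6.11 and 3.86 at ZT10, and its young dark libraries 31.7, 25.2, 30.3 and 33.9 at ZT14, 28.6, 26.9, 24.9 and 24.7 at ZT18 and 16, 15.5, 13.5 and 11.9 at ZT22. The aged light libraries held 9.68, 6.59, 5.14 and 4.03 RPKM at ZT2, 6.02, 8.71, 2.30 and 6.45 at ZT6 and 6.80, 7.43, 5.28 and 8.02 at ZT10, and the aged dark libraries 34.2, 35.6, 34.6 and 40.5 at ZT14, 29.9, 24.6 and 22 at ZT18 and 15.2, 16.6, 13.8 and 15.6 at ZT22. Of the members, Nr4a1 alone showed no overlap at any dark time: all 12 young and all 11 aged dark libraries lay above every light library of their age. For this gene and the members above, the share of all tested genes that separate in this way was not counted. The log2 difference was 1.93 ± 0.13 (SE) in young and 1.91 ± 0.13 in aged, with adjusted p of 1.59e-13 and 8.69e-14, which ranked 1 and 6 by p among the 15321 genes tested.

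These 4 of the 8 tested members were higher in the dark in both ages, where 4.25% of tested genes were so called in young and 6.08% in aged. The same 4 passed an F test over the 6 times in each age, which 12.3% of tested genes passed in young and 11.8% in aged. Leaving out the 2 libraries that stand apart, an analysis chosen after seeing the data, these 4 passed in both ages and Atf3 passed too in young. Markers of neighbouring tissue were also higher in the dark. Of 5 tested retinal pigment epithelium (RPE) markers 4 rose in young and 5 in aged, and the sum of all 8 listed was 5.01 to 36.9 RPKM by day and 17.0 to 95.7 RPKM by night in young, against 6.96 to 57.8 and 28.3 to 183.6 RPKM in aged. Of 5 blood genes 0 passed in young and 5 rose in aged, with sums of 12.2 to 233.2 RPKM in the light and 74.0 to 822.9 RPKM in the dark, and in young limma found 0 with an unadjusted p under 0.05 as well. Of 6 bipolar cell markers 3 rose in each age and of 6 rod markers 2 fell in each age, and no gene of these lists was at 0 in every library. In the other lists the dark and light calls were 1 cone marker lower in young, and 1 endothelial marker lower and 1 cornea marker higher in aged. With RPE, lens and blood levels as covariates the 4 still passed in young. In aged, Egr1, Fos and Nr4a1 passed, and Junb had the same difference with a wider error, 0.68 ± 0.24 (SE, adjusted p = 0.162).

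Genes known to respond to heat and handling were higher in the dark as well. Of 10 such genes, 7 rose in young and 7 in aged, with a median log2 difference of 0.35 and 0.39, where the median of all tested genes was -0.03 and -0.04. Of all tested genes, 4.25% were higher in the dark in young and 6.08% in aged. Their summed level in young was 583.1 to 1166 RPKM by day and 1110 to 1483 RPKM by night. In aged it was 785.7 to 1427 RPKM by day and 1153 to 1479 RPKM by night. Hspa1b, an inducible heat shock protein, differed by 0.48 ± 0.08 (SE) in young and 0.44 ± 0.08 in aged, and Hsp90aa1, a chaperone, by 0.45 ± 0.08 and 0.41 ± 0.08. The part of handling in the members' rise was not tested.

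Step by step, the rise came between ZT10 and ZT14. Over that step Egr1 rose 13.0-fold in young and 8.73-fold in aged (3.70 ± 0.40 and 3.13 ± 0.40 on the log2 scale, SE), Nr4a1 rose 5.61-fold and 5.01-fold, and Fos rose 5.26-fold and 3.44-fold. The adjusted p of these 3 lay between 1.59e-09 and 7.16e-06 in young and between 5.68e-09 and 0.000751 in aged. Junb rose 1.87-fold in young (0.90 ± 0.25, adjusted p = 0.0261) and did not pass in aged (0.81 ± 0.25, adjusted p = 0.0851). So 4 of 8 tested members rose in young and 3 in aged, against 1.49% and 0.959% of all tested genes. The Junb call turned on single libraries: it was lost in young with adjusted p of 0.05 to 0.0751 without replicate 1 of ZT10 or without any 1 replicate of ZT14, and with no filter on low values (0.0579). It was gained in aged without aged ZT6 replicate 3 (adjusted p = 0.00138), with median-ratio scaling (0.0383) and with quantile normalization (0.0395).

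The decline was spread over the steps from ZT14 to ZT2. Egr1 was lower at ZT22 than at ZT18 in young by 2.13 ± 0.40 (SE, adjusted p = 0.0295), a step at which 0.0196% of tested genes fell. That call was lost, with adjusted p of 0.0859 to 0.552, without any 1 of the 4 replicates of ZT18 or without replicate 2, 3 or 4 of ZT22, and with no filter on low values (0.0742). The same step in aged was -1.40 ± 0.44 and did not pass (adjusted p = 1). From ZT22 to ZT2 Egr1 was at -1.24 ± 0.40 in young and -1.19 ± 0.40 in aged, short of the threshold (adjusted p = 0.418 and 0.21). Nr4a1 fell from ZT22 to ZT2, by 1.14 ± 0.22 in young (adjusted p = 0.0116) and 1.27 ± 0.22 in aged (adjusted p = 0.000604), where 0.0849% and 0.724% of tested genes fell. The young call was lost without replicate 2 or 3 of ZT2 or replicate 1 or 2 of ZT22 (adjusted p of 0.0575 to 0.0753), and with the tissue covariates (-0.93 ± 0.24, adjusted p = 0.292). From ZT18 to ZT22 Nr4a1 was at -0.87 ± 0.22 in young and -0.71 ± 0.24 in aged (adjusted p = 0.638 and 1). The steps of Egr1 and Nr4a1 were not tested against each other. Nr4a1 from ZT18 to ZT22 in young passed only without aged ZT6 replicate 3, and Jun rose from ZT6 to ZT10 in aged only without aged ZT6 replicate 2 or 4 (adjusted p = 0.0432 and 0.0324), among the single-library alternatives. No other step of a tested member passed with all libraries, so 6 of 48 member and step pairs were called in young and 4 of 48 in aged.

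**Figure D2:**
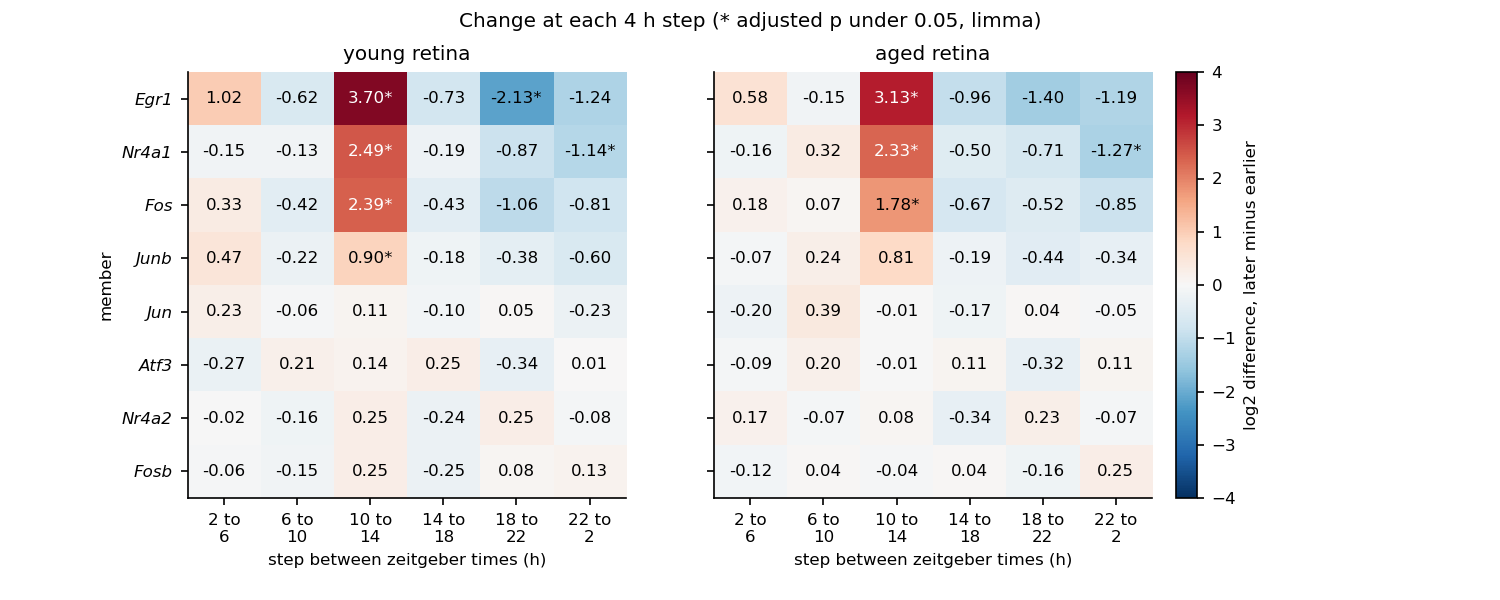
Log2 difference between each time and the one before it (columns, h) for the 8 tested members (rows) in young and aged retinas, with red for higher and blue for lower and a star at an adjusted p under 0.05. The column from 10 to 14 holds the rises, up to 3.70 for Egr1 in young.

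The other members did not follow the dark. Jun, which encodes the founding partner of FOS in AP-1, lay between 9.29 and 12.9 RPKM in young (median 11.7) and between 4.91 and 12.2 RPKM in aged (median 10.7), and its dark and light libraries overlapped. Its dark minus light difference was 0.09 (95% confidence interval -0.06 to 0.24) in young and 0.08 (-0.07 to 0.24) in aged. Fosb differed by -0.01 (-0.15 to 0.13) and -0.08 (-0.23 to 0.06), and Nr4a2, a receptor gene needed by dopamine neurons, by 0.06 (-0.19 to 0.30) and -0.06 (-0.31 to 0.20). These intervals leave out a difference as large as that of Egr1, Fos or Nr4a1. Atf3 differed by 0.25 ± 0.09 (SE) in young, short of the threshold (adjusted p = 0.0642), and by 0.06 ± 0.10 in aged. It passed in young without young ZT10 replicate 4, its highest young library at 6.40 RPKM (0.32 ± 0.08, adjusted p = 0.00506), without young ZT14 replicate 2 (0.29 ± 0.09, adjusted p = 0.0251) or without aged ZT6 replicate 3 (0.25 ± 0.09, adjusted p = 0.0407), whose residuals enter the same spread.

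Egr2 and Nr4a3 did not pass the filter. Egr2, a second zinc finger factor known from myelinating glia, was listed at 0 in 11 of 24 young and 14 of 23 aged libraries, and its highest value was 17 reads, or 0.117 RPKM, in 1 young library at ZT10. Its young libraries held 0, 0, 4 and 0 reads at ZT2, 0, 0, 2 and 2 at ZT6, 2, 17, 2 and 0 at ZT10, 8, 0, 0 and 8 at ZT14, 2, 1, 4 and 1 at ZT18 and 0, 0, 4 and 0 at ZT22. Its aged libraries held 0, 0, 0 and 0 reads at ZT2, 0, 4, 0 and 0 at ZT6, 0, 2, 2 and 6 at ZT10, 0, 4, 1 and 8 at ZT14, 2, 2 and 0 at ZT18 and 0, 0, 0 and 0 at ZT22. Nr4a3, the third receptor of its family, lay between 0.0236 and 0.518 RPKM in young (median 0.220) and between 0.156 and 0.779 RPKM in aged (median 0.322), or 5 to 198 reads per library. With all 37323 genes above 0 tested, Nr4a3 differed between ages by 0.19 ± 0.08 (SE, adjusted p = 0.33) and between dark and light by 0.13 ± 0.10 in young and -0.05 ± 0.11 in aged, and neither gene passed for time of day.

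With age, Atf3 and Fosb were higher, and the 4 members that rose in the dark did not pass. Atf3, the ATF and CREB family factor induced in injured neurons, had a mean of 4.30 ± 0.974 RPKM over the 24 young libraries (SD) and 6.14 ± 0.985 RPKM over the 23 aged ones, a fold of 1.4. Its young libraries held 4.05, 4.85, 3.61 and 4.28 RPKM at ZT2, 3.47, 3.64, 3.32 and 3.06 at ZT6, 2.91, 3.45, 3.81 and 6.40 at ZT10, 4.42, 3.23, 4.64 and 5.82 at ZT14, 5.74, 5.10, 6.09 and 4.68 at ZT18 and 4.34, 4.44, 3.67 and 4.21 at ZT22. The aged libraries held 5.18, 5.84, 6.63 and 6.24 RPKM at ZT2, 6.85, 5.37, 4.19 and 6.13 at ZT6, 6.45, 4.99, 8.43 and 6.33 at ZT10, 5.05, 6.26, 7.12 and 7.31 at ZT14, 6.67, 7.23 and 6.90 at ZT18 and 6.23, 4.68, 5.35 and 5.71 at ZT22. The aged mean was higher at all 6 times, and at ZT2, ZT6, ZT18 and ZT22 every aged library lay above every young one. The log2 difference was 0.49 ± 0.07 (SE, adjusted p = 4.12e-07 by limma). Separation of the ages at single times was not particular to Atf3. Fosb and Jun showed it at 2 times each, Jun with aged lower, and Nr4a1 and Nr4a3 at 1 each. The share of all tested genes without overlap at a time was not counted.

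Fosb, which can yield the long-lived splice product delta-FosB, was far less abundant. Its young libraries held 0.804, 0.570, 0.820 and 0.658 RPKM at ZT2, 0.566, 0.580, 0.537 and 1.01 at ZT6, 0.568, 0.426, 0.571 and 0.617 at ZT10, 0.923, 0.738, 0.606 and 0.730 at ZT14, 0.647, 0.623, 0.508 and 0.418 at ZT18 and 0.648, 0.651, 0.575 and 0.538 at ZT22. The aged libraries held 0.958, 0.815, 1.03 and 0.755 RPKM at ZT2, 1.04, 0.812, 0.457 and 0.853 at ZT6, 0.867, 0.817, 0.789 and 0.742 at ZT10, 0.661, 0.824, 0.702 and 0.90 at ZT14, 0.691, 0.842 and 0.889 at ZT18 and 0.765, 0.655, 0.579 and 0.680 at ZT22. The ages overlapped at 4 times and did not at ZT10 and ZT18, with the aged mean higher at all 6. As for Atf3, the share of all tested genes without overlap was not counted. The log2 difference was 0.18 ± 0.05 (SE, adjusted p = 0.0266), and its size depends on the pseudocount: it was 0.27 with 0.1 and 0.12 with 1 added to the RPKM. With no filter on low values its adjusted p was 0.0537.

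So 2 of the 8 tested members were higher in aged and 0 lower by limma, with Jun at an unadjusted p of 0.0182 on the lower side, where 2.41% of tested genes were higher and 1.83% lower. Neither reached 1.5-fold, a size that 0.49% of tested genes passed together with the test. The intervals of the others were -0.09 to 0.56 for Egr1, -0.22 to 0.31 for Fos, -0.11 to 0.29 for Junb, -0.06 to 0.30 for Nr4a1, -0.21 to 0.13 for Nr4a2 and -0.25 to -0.02 for Jun, which lay below 0 but did not pass (adjusted p = 0.191). Without the 2 libraries that stand apart Junb passed as well (0.18 ± 0.06, SE, adjusted p = 0.0432), in a fit that called 16.5% of genes. Some markers of other cells moved with age: among tested markers 1 of 5 for RPE (Rgr), 1 of 5 for blood (Alas2), 1 of 5 for microglia (Cd68) and the 1 tested for T and B cells (Ighm) rose, and 3 of 7 for lens fell. The sums over each list were 5.01 to 95.7 RPKM in young and 6.96 to 183.6 in aged for RPE, 14.1 to 293.9 and 12.2 to 822.9 for blood, 0.429 to 9.15 and 5.33 to 12.0 for microglia, 0.203 to 0.908 and 0.425 to 1.03 for T and B cells, and 0.302 to 1378 and 0.936 to 1027 for lens, with no marker at 0 in every library. With RPE, lens and blood levels as covariates Atf3 (0.50 ± 0.07, adjusted p = 9.1e-06) and Fosb (0.21 ± 0.06, adjusted p = 0.0368) still passed. The part of immune cells was not tested.

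At single times, 1 of 48 member and time pairs passed. It was Atf3 at ZT6, 0.65 ± 0.16 (SE, n = 4 per age, adjusted p = 0.022 by limma), where 3.12% of tested genes passed. The call was lost without young ZT6 replicate 3 or 4 (adjusted p = 0.0588 and 0.0628) or aged ZT6 replicate 1 (0.0503). At ZT10 the Atf3 difference was 0.64 ± 0.16 (adjusted p = 0.0588), and it was 0.84 ± 0.15 (adjusted p = 0.00178) without young ZT10 replicate 4. Calls at ZT10 were also made without young ZT14 replicate 2 or 4, aged ZT6 replicate 3 or aged ZT10 replicate 2 (adjusted p of 0.032 to 0.0477). Jun at ZT6 was lower in all 4 aged libraries than in any young one, at 10.4, 10.6, 4.91 and 10.6 against 12.2, 10.7, 12.0 and 12.9 RPKM, with a log2 difference of -0.43 ± 0.13 (adjusted p = 0.0613). It passed with limma voom on the recovered reads (adjusted p = 0.0407), and without young ZT10 replicate 4 or without aged ZT6 replicate 1, 2 or 4 (adjusted p of 0.0166 to 0.043), and each of those fits still held aged ZT6 replicate 3, the library at 4.91 RPKM.

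**Figure D3:**
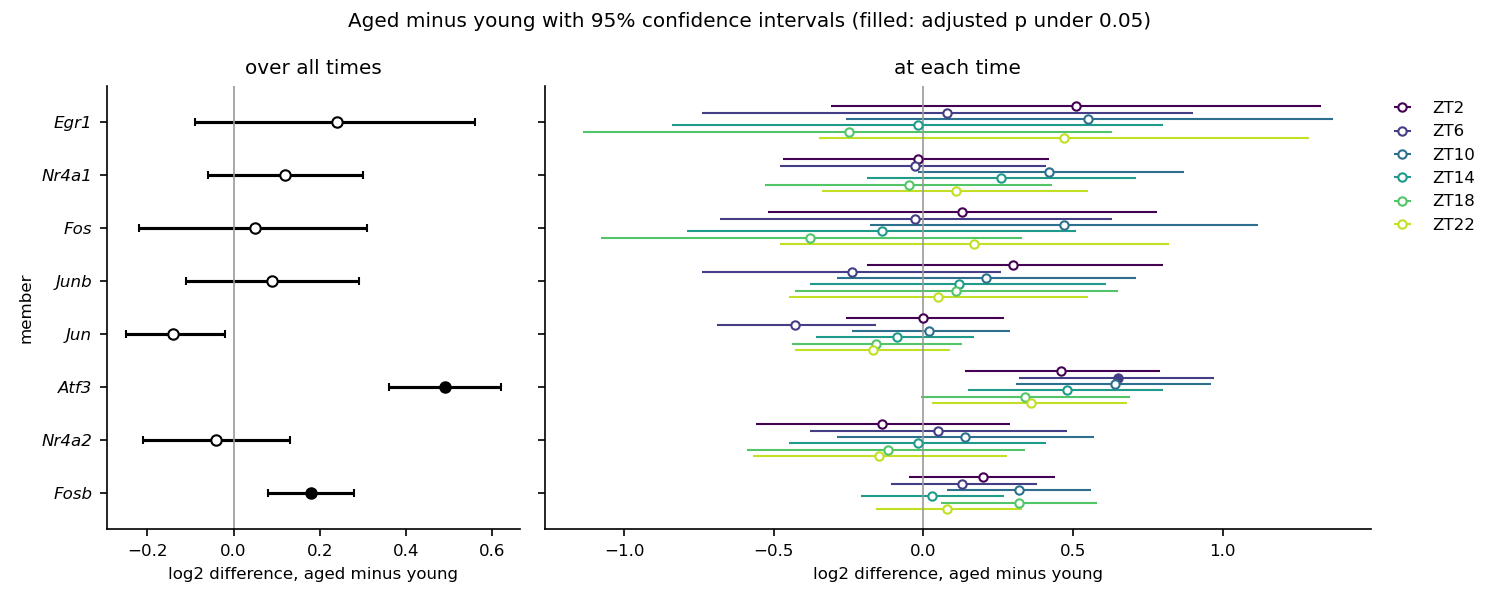
Aged minus young log2 difference with 95% confidence intervals (horizontal axis) for the 8 tested members over all times (left) and at each zeitgeber time (right), filled where the adjusted p was under 0.05. Atf3 stood at 0.49 and Fosb at 0.18 over all times, and at single times the filled point is Atf3 at ZT6.

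In both ages Egr1, Fos, Junb and Nr4a1 passed a test for a daily rhythm, and their peaks lay in the first hours of darkness or near midnight. By a 24 h cosinor Egr1 had an amplitude of 1.86 ± 0.27 in young and 1.62 ± 0.22 in aged (log2, SE), with peaks at 15.98 ± 0.56 h and 16.01 ± 0.51 h. Fos had amplitudes of 1.12 ± 0.17 and 0.95 ± 0.17, Junb 0.48 ± 0.08 and 0.53 ± 0.13, and Nr4a1 1.34 ± 0.12 and 1.40 ± 0.14. Their peaks fell at 16.59 h and 16.28 h for Fos, 16.05 h and 16.31 h for Junb and 17.36 h and 16.90 h for Nr4a1, with SE of 0.35 to 0.88 h. A cosine spreads the abrupt rise at ZT14 over the day, so these peaks lie later than the highest group mean. The 4 passed in each age, as did 19.7% of tested genes in young and 14.4% in aged, with adjusted p of 3.61e-07 to 0.000549 and 2.58e-06 to 0.0164. In aged, with the tissue covariates, Egr1 (adjusted p = 0.0282) and Nr4a1 (0.0129) passed and Fos (0.113) and Junb (0.292) did not. The amplitudes in that fit were 0.90 for Fos and 0.55 for Junb, near the values without covariates. Atf3 just missed in young (adjusted p = 0.0587) and passed without young ZT10 replicate 4 (0.00272), ZT14 replicate 2 (0.0235), ZT2 replicate 2 (0.0424) or ZT22 replicate 3 (0.0465).

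Between ages the amplitude differed by -0.24 ± 0.35 (aged minus young, SE) for Egr1, -0.17 ± 0.24 for Fos, 0.05 ± 0.15 for Junb and 0.06 ± 0.18 for Nr4a1. The peaks differed by 0.03 ± 0.76 h, -0.31 ± 0.86 h, 0.26 ± 1.09 h and -0.46 ± 0.52 h. For none of the 8 tested members did limma find a difference of rhythm (adjusted p of 0.606 to 0.974), where 1 gene, 0.00653% of those tested, passed and 1187 had an unadjusted p under 0.05. The age by time interaction also found 0 members (adjusted p of 0.838 to 0.946), where 0 genes, 0% of those tested, passed and 735 had an unadjusted p under 0.05. In both tests 0 members had an unadjusted p under 0.05, and voom, run on reads in place of RPKM, called 0 members too. With array weights the interaction called 1597 genes and 0 members, with 4 members at an unadjusted p under 0.05 and a lowest adjusted p among members of 0.0805, and the difference of rhythm called 7 genes and 0 members, with 1 member at an unadjusted p under 0.05. The errors leave room for amplitude differences of the size of the SE or more, so these tests do not show that the profiles are equal.

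**Figure D4:**
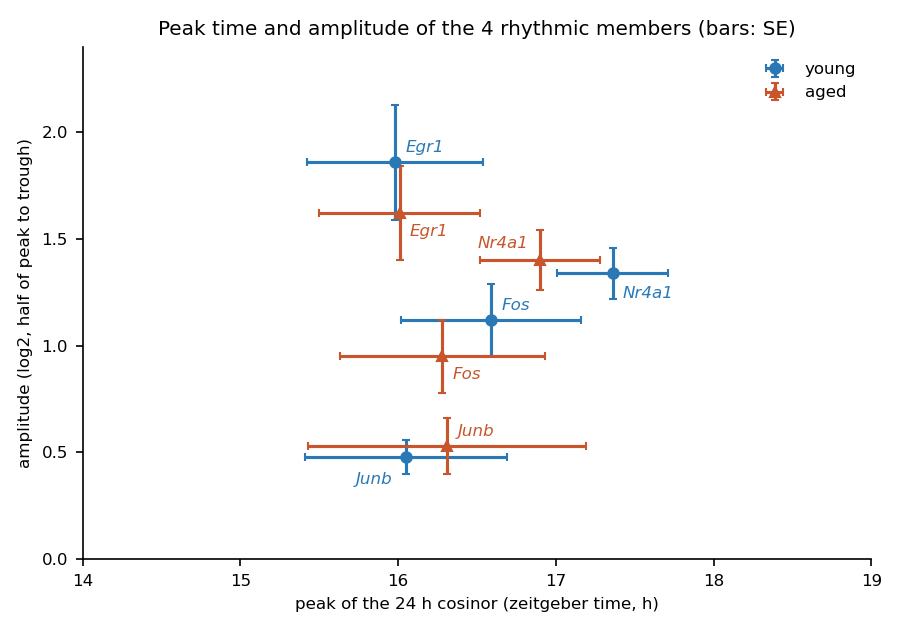
Amplitude of the 24 h cosinor (vertical axis, log2) against its peak in zeitgeber hours for Egr1, Nr4a1, Fos and Junb in young (circles) and aged (triangles), with bars of 1 SE. Peaks lay between 15.98 and 17.36 h, and for each gene the bars of both ages overlapped on both axes.

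Beyond age and time, several members were high or low in the same libraries. Over the 47 deviations from group means, 17 of 45 pairs passed a two-sided permutation test (100000 resamples within groups, adjusted over the 45 pairs), 15 with a positive correlation. Of these, 14 passed by Spearman's rho as well. The share of pairs of other tested genes that would pass was not counted, so the count is not shown to be particular to the members. The strongest was Egr1 with Fos, with Pearson's r of 0.85 and Spearman's rho of 0.82 (permutation p of 1e-05 for each, the smallest the resampling can give, adjusted p = 9e-05 and 0.00015). Without the 2 libraries farthest from the median of Egr1, r was 0.84. The 6 pairs of Egr1, Fos, Junb and Nr4a1 had r of 0.68 to 0.85, and after leaving out the farthest 2 libraries 0.60 to 0.84. Jun, which did not pass the dark test, varied with them: its r was 0.84 with Junb (0.64 without the farthest 2), 0.73 with Nr4a1 (0.50), 0.67 with Fos (0.62) and 0.53 with Egr1 (0.54).

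Atf3 was opposed to Nr4a2 and Nr4a3. Its r was -0.50 with Nr4a3 (rho -0.50, adjusted permutation p = 0.00491 and 0.00835) and -0.50 with Nr4a2 (rho -0.35, adjusted permutation p = 0.0299 and 0.0781), and without the farthest 2 libraries -0.43 and -0.30. The Nr4a2 pair did not pass without young ZT10 replicate 4, where Nr4a2 was at 0.164 RPKM (r = -0.25, adjusted permutation p = 0.165), without young ZT6 replicate 4, young ZT14 replicate 2, aged ZT2 replicate 1 or aged ZT10 replicate 3 (r of -0.50 to -0.48, adjusted permutation p of 0.052 to 0.0658), or without both libraries that stand apart (r = -0.33, adjusted permutation p = 0.0552). The Nr4a3 pair passed without both (r = -0.37, adjusted permutation p = 0.0447). With the other members Atf3 did not pass in all libraries: its r was -0.16 with Egr1 and Fos, -0.02 with Nr4a1, -0.04 with Egr2, 0.12 with Junb, 0.22 with Jun and 0.24 with Fosb. Without both libraries that stand apart its r with Junb was -0.39 and passed (adjusted permutation p = 0.0306). There Nr4a3 passed with Fos (0.60), Junb (0.57), Nr4a1 (0.52) and Egr1 (0.48), which it did not in all libraries. The pair of Nr4a3 with Nr4a2 was then lost (0.35, adjusted permutation p = 0.0871). That pair was not stable: in all libraries it passed by r (0.36, adjusted permutation p = 0.0474) but not by rho (0.30, adjusted permutation p = 0.118). It passed in 15 of 49 alternatives. All values of a library share its total, so scaling can move them together, and after median-ratio scaling 10 pairs passed in place of 17. The 6 pairs of Egr1, Fos, Junb and Nr4a1 were among the 10, as were Jun with Junb (0.77) and Egr1 (0.40) and Atf3 with Nr4a2 (-0.64) and Nr4a3 (-0.46). Without young ZT6 replicate 4, a library high in Egr1 (11.1 RPKM), Fos (11.8 RPKM) and Fosb (1.01 RPKM), 11 pairs passed. Those 6 pairs passed in all 49 of the single-library, paired-library and scaling alternatives in which pairs were listed.

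**Figure D5:**
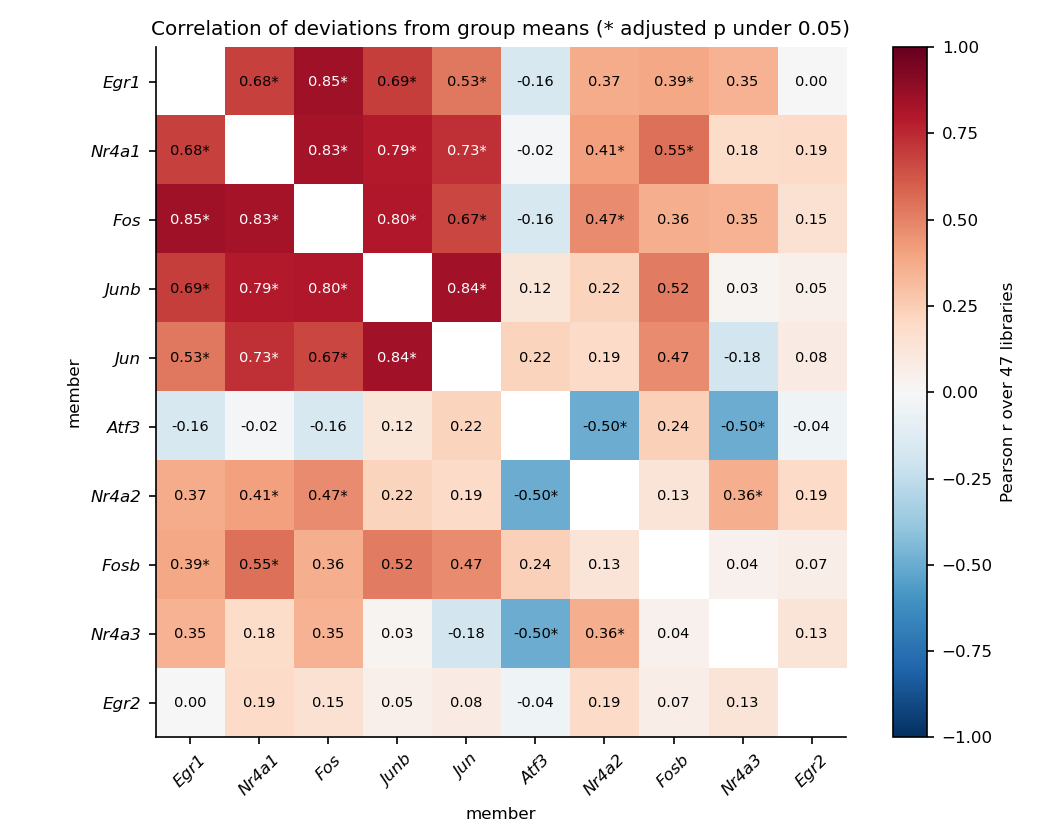
Pearson's r between deviations of members from their group means over 47 libraries (both axes list the 10 members), with red for positive, blue for negative and a star at an adjusted permutation p under 0.05. Egr1, Nr4a1, Fos, Junb and Jun form a block of r from 0.53 to 0.85.

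Across the 12 group means the shared pattern was tighter still: Egr1 had r of 0.99 with Fos, 0.97 with Junb and 0.94 with Nr4a1, whereas Jun had 0.34 to 0.45 with these 4 and Nr4a2 between -0.05 and 0.08. These are descriptions over points that come from the same libraries. Outside the members, the genes closest to the mean standardized profile of the 8 were Dusp1, a phosphatase that switches off MAP kinases, Sik1, a kinase that restrains CREB coactivators, and Ell2, each with r of 0.94. They were followed by Pfkfb3, Oxsr1 and Gpr146 (0.93), Cln8, Ier2 and Josd1 (0.91) and Bcl6 (0.90), and all 10 stood highest at ZT14. Taken singly, Ier2, another early response gene, was the closest to Egr1 (0.97), Fos (0.97) and Junb (0.98), and Rel, an NF-kappa-B subunit, to Nr4a1 (0.97). The closest to Jun was Gna12 (0.96), to Atf3 Rnase4 (0.93), to Nr4a2 Xylt1 (0.89) and to Fosb Aste1 (0.83).

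Other genes of the pathway were counted from 4 lists, where the median of all tested genes in the dark minus light contrast was -0.03 in young and -0.04 in aged, and 4.25% and 6.08% of them were higher in the dark. Of 30 tested feedback and signal regulators, 12 were higher and 1 lower in the dark in each age, with medians of 0.15 and 0.16. They included Spry2, an inhibitor of growth factor signalling (0.55 ± 0.06 in young and 0.81 ± 0.06 in aged, log2, SE), the pseudokinase gene Trib1 (0.32 ± 0.04 and 0.45 ± 0.04), Sik1 (0.90 ± 0.10 and 0.57 ± 0.10) and Dusp5, a phosphatase of ERK (0.48 ± 0.08 and 0.60 ± 0.08). Of 17 other early transcription factors 3 were higher and 1 lower in each age, with medians of 0.05 and 0.07. The 3 were Ier2 (0.75 ± 0.13 and 0.73 ± 0.13), Rel (0.45 ± 0.07 and 0.41 ± 0.07) and Nfil3 (0.34 ± 0.06 and 0.26 ± 0.06), a repressor tied to the clock. The lower gene differed between ages. In young it was Mafk (-0.22 ± 0.08, against -0.16 ± 0.08 in aged). In aged it was Npas4 (-0.43 ± 0.14, against -0.17 ± 0.13 in young), at a mean of 0.441 RPKM.

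The late response genes and upstream regulators had few calls, at shares near those of all tested genes. Of 22 synaptic, secreted and late response genes 1 was higher in the dark in each age, with medians of 0.14 and -0.09: Homer1, a synaptic scaffold (0.34 ± 0.06 and 0.31 ± 0.06). Of 22 regulators upstream of the immediate early genes 1 was higher in young and 2 in aged, with medians of 0.03 and 0.00. Mef2d, a calcium-responsive factor, was the one in both (0.38 ± 0.04 and 0.46 ± 0.04). With age, where the median of all tested genes was -0.02 and 2.41% were higher and 1.83% lower, 4 feedback regulators were higher and 2 lower (median 0.01), Homer1 (0.22 ± 0.04) alone was higher among late response genes (median 0.06), and Mef2c (0.25 ± 0.05) alone among upstream regulators (median -0.03). The 4 and 2 feedback regulators included Spry2 (-0.37 ± 0.05), Sgk1, a salt- and glucocorticoid-induced kinase (0.22 ± 0.04), Nab1, a corepressor of EGR proteins (0.27 ± 0.06), and Gadd45b (0.34 ± 0.09). Of the 17 other early transcription factors 0 passed for age by limma, and 0 had an unadjusted p under 0.05 (median 0.03).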

How the data were processed

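RNA was sequenced from mouse retina in 47 libraries of 12 groups. The authors deposited 1 table of RPKM values; per the submitters' processing notes the build was GRCm39 and the tools FastQC 0.23.4, HISAT2 2.2.1 and Subread 2.0.6. The series' design text names edgeR, which needs counts. The main fits here used the deposited measure, with limma 3.58.1 (R 4.3.3, trended variance) on log2(RPKM + 0.5). Genes at 0.5 RPKM or more in at least 12 libraries were tested, 15321 of 57180, with Benjamini-Hochberg adjustment over all of them and a call at an adjusted p under 0.05. One fit held age and time, another the 12 group means, and a 24 h cosinor was fitted per age. Reads were recovered from the RPKM steps for all 37323 genes above 0 (within 0.01 of a whole read) and gave the library totals and a limma voom alternative. The test was checked on simulated data. A total of 1 column, headed as a further replicate of aged ZT18, matched no sample and was not used.

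All 10 members are described. Other lists are given by counts, with up to 4 genes each named by the smallest p for time or for age, and the 10 genes most like the mean member profile are named. The other early transcription factors that were lower in the dark are named as well. Members and lists were chosen with earlier results of these data known. Exon lengths and symbols used GRCm38.p6 annotation, as did the RefSeq promoters. The alternatives were other pseudocounts, filters and scalings, library weights, tissue covariates, the replicate block, a fold minimum of 1.5 and each library left out.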

Additional observations from a re-analysis of the deposited data

Results flagged for a closer look

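Of 88 sets of 4 libraries (8 tested members in 11 groups), 5 held 1 library far from the other 3, by the share of the set's range that the gap takes. Chance gives this in about 1 set in 20. Young ZT6 replicate 4 held the highest Egr1 at 11.1 RPKM, where the others held 4.59 to 5.33 RPKM, and the highest Fosb at 1.01 RPKM, where the others held 0.537 to 0.580 RPKM. Fos was lowest in aged ZT10 replicate 3 at 4.99 RPKM, against 8.32 to 8.57 RPKM. Jun was lowest in aged ZT6 replicate 3 at 4.91 RPKM, against 10.4 to 10.6 RPKM, and Nr4a2 in young ZT10 replicate 4 at 0.164 RPKM, against 1.08 to 1.21 RPKM. The last 2 libraries are those that stand apart over all tested genes.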

How the results depend on the processing

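Of 2139 recomputed values, 2106 kept their side of the threshold or stayed within 1.5 times the count. The sign changed in 12, of which 0 had passed the test or passed it then: Fosb and Nr4a2 dark minus light in young (-0.03 to 0.03 and -0.05 to 0.1 with single libraries left out), Nr4a2 and Atf3 in aged, and Fos with age (0.05, and -0.01 with limma voom). The 2 age calls became 1 with no filter on low values and 1 with a filter of 1 RPKM (Fosb then lost or untested), 4 with array weights and 0 with a fold minimum of 1.5. The 1 call at single times became 2 with the replicate block, with the tissue covariates, with limma voom and without both libraries that stand apart, 8 with array weights, and 0 to 3 with single libraries left out. Array weights gave 15 steps in young in place of 6 and 20 in aged in place of 4, in fits that called up to 32.5% of all genes at the steps they added. The tissue covariates left 2 rhythms in aged in place of 4, with amplitudes of 0.90 in place of 0.95 for Fos and 0.55 in place of 0.53 for Junb. Of the 17 correlated pairs, 10 passed with median-ratio scaling, and 11 to 20 with single libraries left out. The cause was not tested.

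Same-numbered libraries had a mean r of 0.03 over 253 pairs (-0.59 to 0.68, of which 90 were over 0.1). Pairs with other numbers had a mean of -0.01 over 759 pairs. Of 47 libraries, 17 were closest to their own number. The shared deviation was small on average, so the numbers are not taken as pairs. With the replicate block the age calls were again 2, and Jun at ZT6 passed as well (adjusted p = 0.0494). Depth limits Egr2, at 0 to 17 reads per library.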
